A study of Mus musculus with 12 samples.

Results

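The gel-forming secreted mucins of the mouse proximal colon were followed across 2 genotypes. The members are Muc2, Muc5b, Muc5ac and Muc6, chosen by symbol as the 4 classical gel-forming mucins, and all 4 were found among the 55376 genes of the count table. The 12 mice, all 12 weeks old, comprised 6 controls (EPR fl/fl) and 6 knockouts (EPR cKO). Whole proximal colon was taken, and ribosome-depleted total RNA was sequenced with 1 library per animal. EPR, annotated as a long noncoding RNA that encodes a small peptide, is listed in the table as Smim31. EPR fl/fl mice, whose genotype label reads wt, carry EPR alleles with loxP sites around the promoter and exon 1. EPR cKO mice carry the same alleles and a Cre recombinase driven by the CDX2 promoter, which removes the flanked stretch in epithelial cells of the colon, the cecum and the end of the ileum. The floxed alleles are therefore shared by both groups, whereas the loss of EPR and the presence of the Cre transgene cannot be told apart.

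Gel-forming mucins are very large secreted glycoproteins that link end to end through cysteine-rich domains related to those of von Willebrand factor. Their central domains, rich in serine and threonine, carry dense O-glycans that bind water, and calcium and pH changes on secretion let the packed chains swell into mucus. MUC2, made by goblet cells, is the structural mucin of the intestine. MUC5B is known from airway and salivary glands, MUC5AC from gastric surface cells and airway goblet cells, and MUC6 from gastric glands and Brunner's glands.

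The 4 genes lie side by side on chromosome 7 (mm10) in the order Muc6, Muc2, Muc5ac and Muc5b. Muc6 occupies chr7:141633456-141655319 on the minus strand. The 3 others are on the plus strand, with Muc2 at chr7:141695703-141754690, Muc5ac at chr7:141788972-141819231 and Muc5b at chr7:141839070-141873084. The cluster spans 239.6 kb, and 0 other genes of the table lay between its members or overlapped one of them. The gene model against which Muc2 reads were counted was incomplete. It held 3142 exon bases in 27 intervals, which is 44.1% of the 7127 exon bases that a full GENCODE annotation of the same assembly gives the gene, and it lacked the annotated start at 141690340. The models of Muc5b (14964 bases), Muc5ac (10752 bases) and Muc6 (9361 bases) held all annotated exon bases. Reads from the missing exons of Muc2 were not counted, so that its counts refer to part of the transcript in every library, and its values per length rest on that part.

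The members did not share long identical sequence. Of the 2995 distinct 50-base stretches in the counted Muc2 transcripts, 0 occurred in another member or in any other annotated transcript on either strand, and 0 of the 12705 stretches of Muc5b, 0 of the 9263 of Muc5ac and 0 of the 8952 of Muc6 did so. At 31 bases, Muc5b and Muc5ac had 26 stretches in common, and none was shared with Muc2. Repeats inside a transcript made up 8.34% of the 50-base stretches of Muc5b, 10.6% of those of Muc5ac and 6.16% of those of Muc6, and 0% of the counted Muc2 stretches.

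The sequences upstream of the RefSeq starts of Muc2 and Muc6 are shown because these members are neighbours that are read away from each other and differ in level. RefSeq windows were found for 2 of the 4 members. Both are the 250 bases before the start, written on the strand of the gene, from GRCm38.p6. The Muc2 window is chr7:141690090-141690339 on the plus strand and the Muc6 window is chr7:141655394-141655643 on the minus strand. Capitals mark every match, on either strand, to TATAA (the TATA box), GATAA (bound by GATA factors), CACCC (bound by KLF and SP factors), CAGCTG (an E-box) and TTTAT (a core of sites for caudal homeobox factors such as CDX2), and neighbouring matches run together.
Muc2: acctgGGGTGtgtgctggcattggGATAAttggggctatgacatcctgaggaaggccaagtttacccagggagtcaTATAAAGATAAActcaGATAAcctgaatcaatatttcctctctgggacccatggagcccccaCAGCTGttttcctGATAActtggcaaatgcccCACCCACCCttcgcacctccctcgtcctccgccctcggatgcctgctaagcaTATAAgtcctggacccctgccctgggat
Muc6: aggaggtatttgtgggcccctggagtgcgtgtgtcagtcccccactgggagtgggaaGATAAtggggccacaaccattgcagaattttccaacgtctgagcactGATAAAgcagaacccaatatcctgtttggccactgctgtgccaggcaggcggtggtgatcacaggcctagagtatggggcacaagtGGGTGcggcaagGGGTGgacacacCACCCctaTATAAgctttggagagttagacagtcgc
TATAA lay 28 to 24 bases before the start in both windows, and Muc2 held a further copy from 174 to 170. Over the 32851 RefSeq windows of the same length, TATAA was present in 22.8%, GATAA in 22.6%, CACCC in 52.0%, CAGCTG in 13.001% and TTTAT in 37.3%. GATAA was found 4 times in the Muc2 window and 2 times in that of Muc6. CAGCTG was found only in the Muc2 window, from base 112 to 107 before the start. TTTAT overlapped a TATAA or GATAA match at each of its 3 places. These matches describe the letters of the windows, and the libraries do not measure binding to them.

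EPR followed the labels. EPR (Smim31), counted over the whole gene, lay between 21.2 and 58.0 TMM-scaled CPM (read counts relative to library size, scaled by the trimmed mean of M values, and used throughout) in the controls and between 0 and 0.423 in the knockouts. Total counts ran from 13093904 to 30727736 in the controls and from 18468123 to 33211041 in the knockouts. Of 15952 genes tested with edgeR's quasi-likelihood test, 251 were lower in the knockouts at a Benjamini-Hochberg adjusted p under 0.05, or 1.57%, and 141 were higher, or 0.884%. The library EPR cKO 1 stood apart: it had the lowest difference between epithelium and smooth muscle markers of all libraries, and without it 2273 genes were lower and 1178 higher. EPR fl/fl 3 had the highest level of each of the 4 mucins.

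Muc2 dominated the family and fell about 4.56-fold. Its counts were 106480, 224221, 460530, 263137, 56944 and 108650 in control animals 1 to 6, against 35879, 47833, 37795, 41468, 34430 and 32596 in knockout animals 1 to 6. Scaled to depth, these were 7775, 7267, 14561, 8532, 4072 and 5828 CPM in the controls and 1970, 2023, 1889, 1848, 1071 and 1731 CPM in the knockouts. Every EPR cKO library lay below every EPR fl/fl library, with 4072 CPM in the lowest control and 2023 CPM in the highest knockout.
The mean level was 8006 ± 3579 CPM (SD, n = 6) in the controls and 1755 ± 350 CPM in the knockouts. The log2 fold change was -2.19 with a standard error (SE) of 0.27 and an edgeR adjusted p of 0.000741, which passed the thresholds of the study (0.001 for the adjusted p, with a minimum fold change). That adjusted p exceeded 0.001 in 9 of the 12 omissions of a single library (0.00117 to 0.00324, each one except those without EPR fl/fl 3, EPR fl/fl 5 or EPR cKO 1). It also did so with the composition covariate described below (0.0102) and with a replicate block (0.00191). It stayed under 0.001 in the other alternatives, among them limma-voom (0.000446), DESeq2 (2.2e-15), and edgeR with total counts (0.000568) or filterByExpr (0.000661). The pass at this threshold was therefore not stable to the omission of a library or to the model. Those thresholds called 27 genes lower, or 0.169% of those tested. Muc2 had rank 20 by size of fall among the 15952 genes, and Muc5b had rank 17. In the bulk of the tissue, fewer goblet cells and less Muc2 RNA per goblet cell cannot be told apart.

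Muc2 made up a smaller share of the transcriptome in the knockouts. It took between 0.435% and 1.499% of all counts of a library in the controls, and between 0.104% and 0.203% in the knockouts. At these counts the 95% Wilson intervals were narrow, from 0.431% to 0.438% in the lowest control and from 0.201% to 0.205% in the highest knockout, and they cover counting error only. By count, Muc2 ranked between 4 and 12 among all genes in the control libraries and between 22 and 52 in the knockout libraries. The coefficient of variation was 44.7% in the controls and 20.0% in the knockouts. The control range was 3.58-fold from EPR fl/fl 5 to EPR fl/fl 3, and the knockout range was 1.89-fold.

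**Figure D1:**
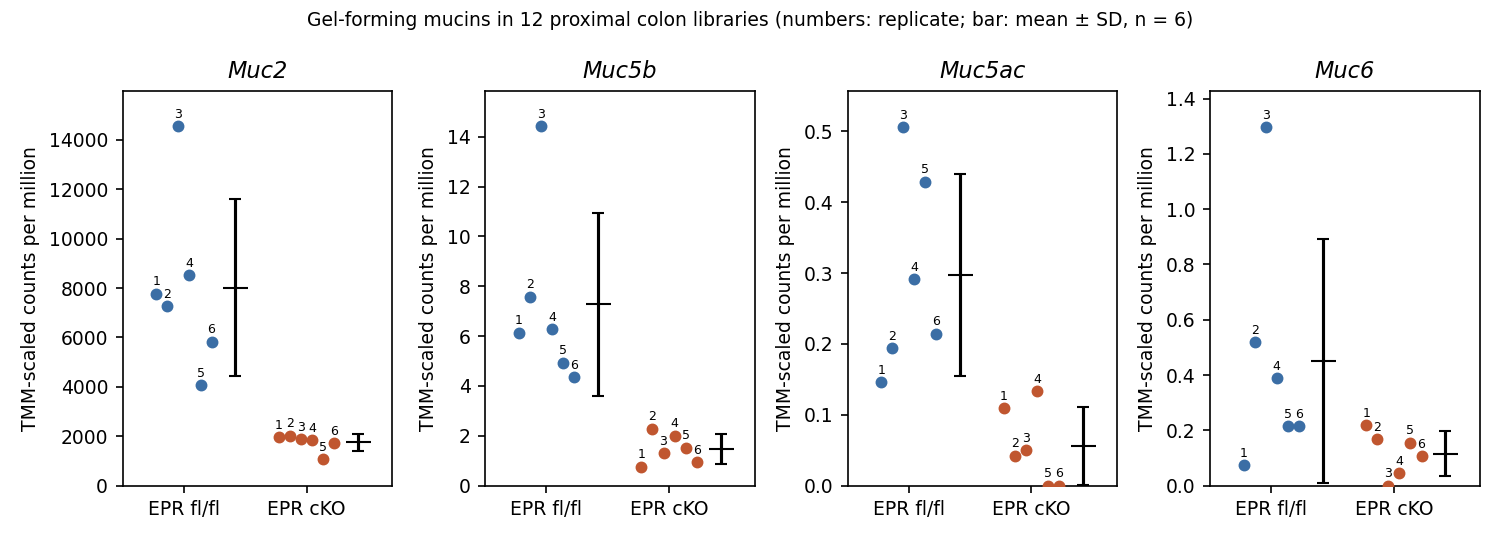
TMM-scaled CPM (vertical axes, from 0, different for each gene) of the 4 gel-forming mucins in the 6 EPR fl/fl (blue) and 6 EPR cKO (orange) libraries, each point 1 animal with its replicate number, with the mean ± SD beside them. Muc2 and Muc5b do not overlap between the groups, Muc5ac does not on this scale but does without TMM scaling, Muc6 overlaps, and EPR fl/fl 3 is the highest point of each gene.

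Muc5b, a minor transcript in this tissue, fell about 4.95-fold. Its counts were 84, 234, 456, 194, 69 and 81 in control animals 1 to 6, against 14, 54, 26, 45, 49 and 18 in knockout animals 1 to 6. The corresponding levels were 6.13, 7.58, 14.4, 6.29, 4.93 and 4.35 CPM against 0.769, 2.28, 1.30, 2.01, 1.52 and 0.956 CPM. The groups did not overlap, and EPR fl/fl 3 was again the highest control. The means were 7.28 ± 3.67 and 1.47 ± 0.589 CPM (SD, n = 6 each), with a log2 fold change of -2.30 (SE 0.34) and an edgeR adjusted p of 0.00290. It passed an adjusted p under 0.05 but not the 0.001 of the study. Muc2 and Muc5b, the 2 members that entered the test, were both called, beside the 1.57% of all genes called lower. Both were also among the 234 genes, or 1.47% of those tested, whose EPR cKO libraries all lay below all EPR fl/fl libraries.

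Muc5ac and Muc6 were near the limit of detection. Neither reached 1 CPM in 4 libraries, and neither entered the test across genes, so that a fold change rests on few reads. A floor of 3 counts corresponded to between 0.0903 and 0.229 CPM of all counts, depending on depth.
Muc5ac had 2, 6, 16, 9, 6 and 4 counts in control animals 1 to 6, against 2, 1, 1, 3, 0 and 0 counts in knockout animals 1 to 6. In all, 43 counts in the controls stood against 7 in the knockouts. By scaled level the groups did not overlap, with 0.146 CPM in the lowest control (EPR fl/fl 1) against 0.134 CPM in the highest knockout (EPR cKO 4). Without TMM scaling these libraries stood at 0.128 and 0.135 CPM, so that the groups overlapped, and the separation rested on the TMM factor of EPR fl/fl 1 (0.876) and on 2 counts.
The mean was 0.297 ± 0.142 CPM in the controls and 0.0560 ± 0.0556 CPM in the knockouts. The exact permutation test over the 12 libraries gave p = 0.00216, the smallest it allows with 6 against 6 (two-sided). When all genes with any count were fitted, the log2 fold change was -2.42 (SE 0.60) with an edgeR adjusted p of 0.0776, so that the fall of Muc5ac did not pass the test across genes.

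Muc6, the mucin of gastric glands, had 1, 16, 41, 12, 3 and 4 counts in control animals 1 to 6, against 4, 4, 0, 1, 5 and 2 counts in knockout animals 1 to 6. Of its 77 control counts, 41 came from EPR fl/fl 3, and the knockouts held 16 counts in all. The groups overlapped, with 3 EPR fl/fl libraries above every knockout and 2 EPR cKO libraries below every control by scaled level. The mean was 0.451 ± 0.442 CPM against 0.116 ± 0.0822 CPM. The exact permutation p was 0.0346 (two-sided, unadjusted), and the fit without a filter gave a log2 fold change of -2.03 (SE 0.62) with an edgeR adjusted p of 0.203. Without EPR fl/fl 3 the log2 fold change was -1.36 and the exact p 0.0779. The exact p also exceeded 0.05 without EPR fl/fl 2 (0.0714), EPR fl/fl 4 (0.0671), EPR cKO 3 (0.0736), EPR cKO 4 (0.0649) or EPR cKO 6 (0.0519).

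Per exon length, the order of the members was the same in both groups. In RPKM (TMM-scaled CPM per kilobase of exon), Muc2 stood at 2548 ± 1139 in the controls and at 559 ± 112 in the knockouts (SD, n = 6 each). Muc5b followed at 0.487 ± 0.245 and 0.0984 ± 0.0394 RPKM, then Muc6 at 0.0482 ± 0.0472 and 0.0124 ± 0.00878 RPKM, and Muc5ac at 0.0276 ± 0.0132 and 0.00521 ± 0.00517 RPKM. The last 2 in this order did not differ beyond their spread in either group. Of all counts of the 4 genes, Muc2 made up between 99.86% and 99.92% in the control libraries and between 99.84% and 99.94% in the knockout libraries.

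Because the 4 genes are counted in the same library, their ratios do not depend on scaling. The ratio of Muc2 to Muc5b counts ran from 825 to 1356 in the controls and from 703 to 2563 in the knockouts, with medians of 1139 and 1188. The knockout range enclosed the control range, and its highest value came from EPR cKO 1, in which Muc5b had 14 counts. On the log2 scale the ratio was 10.11 ± 0.30 in the controls and 10.26 ± 0.70 in the knockouts, a difference of 0.16 with a 95% interval from -0.54 to 0.88 (exact permutation p = 0.626, two-sided). The interval corresponds to a factor between 0.687 and 1.84, so that a change of the ratio within these bounds was not detectable here.
Ratios with the 2 rarest members were too poorly counted for a test and are given from summed counts. Muc2 stood to Muc5ac at 28371 in the controls and 32857 in the knockouts, and to Muc6 at 15844 and 14375. Muc5b stood to Muc5ac at 26 and 29.4, and to Muc6 at 14.5 and 12.9. The summed ratio of Muc2 to Muc5b was 1091 in the controls and 1117 in the knockouts.

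Muc2 was lower relative to other epithelial transcripts of the same library. Relative to the summed counts of 9 general epithelium markers, such as Epcam, Cdh1 and Krt8, the log2 ratio of Muc2 fell from -0.36 ± 0.80 in the controls to -2.82 ± 0.49 in the knockouts, a difference of -2.45 (95% interval -3.32 to -1.62). Relative to 8 membrane mucins it fell from 1.53 ± 0.56 to -0.48 ± 0.20, a difference of -2.01 (interval -2.54 to -1.49). Relative to 12 other goblet cell markers, among them Fcgbp, Clca1, Zg16 and Tff3, it fell from -0.63 ± 0.46 to -1.79 ± 0.34, a difference of -1.16 (interval -1.68 to -0.64). The groups did not overlap in any of the 3 ratios, and each exact permutation p was 0.00216 (two-sided, n = 6 each), also after Benjamini-Hochberg adjustment over the 3. Taken singly, the 12 goblet cell markers had log2 fold changes from -2.13 (Klk1) to -0.49, against -2.19 for Muc2, and these single differences were not tested.

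**Figure D2:**
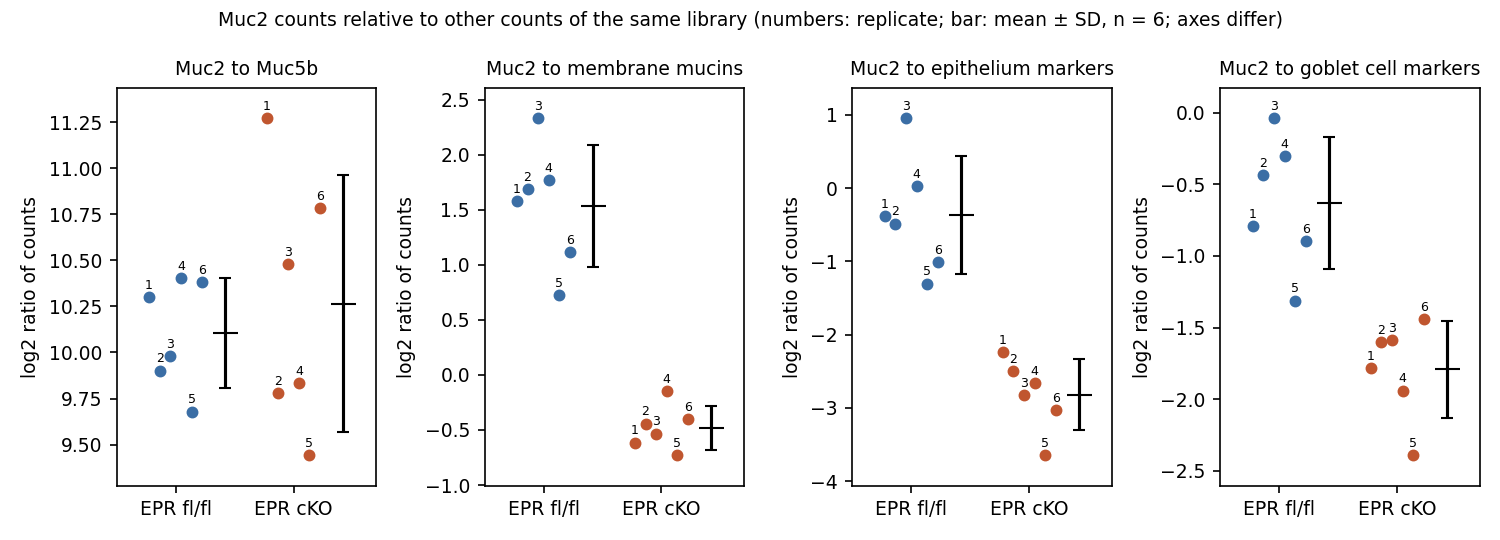
Log2 ratio of Muc2 counts to Muc5b counts and to the summed counts of membrane mucins, epithelium markers and goblet cell markers (vertical axes, different ranges) in each EPR fl/fl (blue) and EPR cKO (orange) library, with replicate numbers and the mean ± SD. The ratio to Muc5b overlaps between the groups, and the 3 others do not.

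The mix of tissue layers varied between the libraries. A composition score, the mean log2 CPM of 9 epithelium markers minus that of 9 smooth muscle markers, was 1.11 ± 0.25 in the controls and 2.30 ± 1.32 in the knockouts (exact permutation p = 0.0606, two-sided), with EPR cKO 1 at -0.11 and EPR cKO 5 at 3.46. With all libraries, edgeR called none of the 9 epithelium markers and none of the 9 smooth muscle markers. DESeq2 called 1 epithelium marker, Cldn7, higher, beside 440 of all 15952 tested genes. Without EPR cKO 1, 9 of 9 smooth muscle markers were lower in the knockouts (median log2 fold change -1.29) and 3 of 9 epithelium markers were higher. In that setting 2273 of all 15836 tested genes were lower and 1178 higher. The summed epithelium markers lay between 7483 and 11715 CPM in the controls and between 9295 and 14142 CPM in the knockouts, and these ranges overlapped. The summed smooth muscle markers lay between 3368 and 5748 CPM and between 1187 and 9996 CPM. No marker of either list was at 0. The log2 fold change of Muc2 was -2.02 (edgeR adjusted p 0.0102) and that of Muc5b -2.45 (0.0175) with the composition score as a covariate, and without EPR cKO 1 they were -2.24 (0.000597) and -2.19 (0.00151).

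Within the controls, no relation of Muc2 to the composition score was detectable (Pearson r = 0.025, exact permutation p = 0.956, and Spearman rho = -0.086, p = 0.919, n = 6). Without the 2 libraries farthest from the median score, EPR fl/fl 2 and EPR fl/fl 3, r was 0.97 (exact p = 0.0833, n = 4). Within the knockouts, Muc2 was lower where the score was higher by rank (rho = -0.94, exact p = 0.0167, adjusted over both groups 0.0333), while Pearson's r was -0.57 (exact p = 0.178, adjusted 0.356, n = 6). Leaving out EPR cKO 1 and EPR cKO 5 gave r = -0.97 (exact p = 0.0417, n = 4). The value in the controls thus rested on EPR fl/fl 2 and EPR fl/fl 3, and 2 relations were computed in all.

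**Figure D3:**
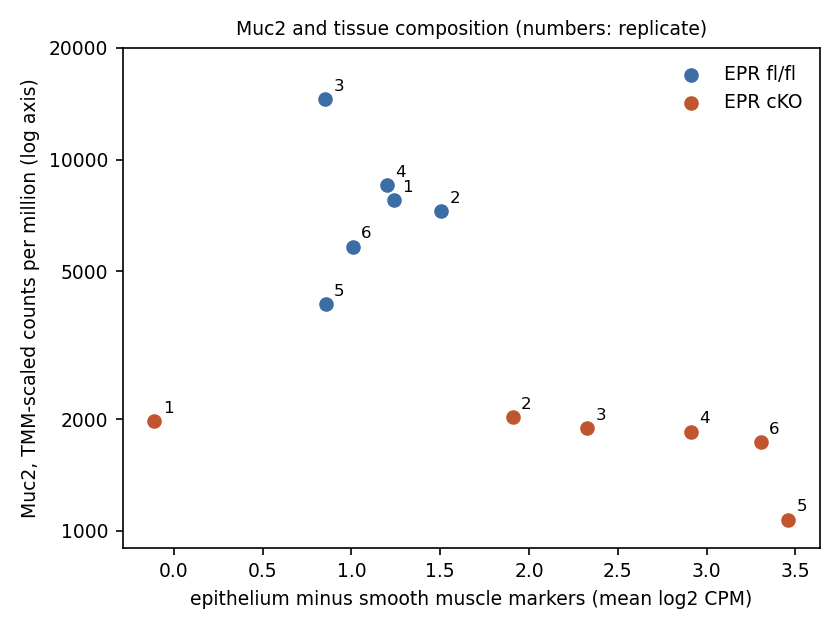
Muc2 in TMM-scaled CPM (vertical axis, log scale) against the difference in mean log2 CPM between epithelium and smooth muscle markers (horizontal axis) for the 12 libraries, numbered by replicate. EPR cKO 1 lies at -0.11 on the horizontal axis with a Muc2 level like that of EPR cKO 2 to 4, and all EPR cKO points (orange) lie below all EPR fl/fl points (blue).

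Markers of other organs in which the minor mucins are made were low, but some sums reached or exceeded the levels of Muc5ac and Muc6 themselves. In the controls these 2 mucins had means of 0.297 and 0.451 CPM. The 4 gastric surface cell markers (Gkn1, Gkn2, Gkn3 and Tff1) summed to at most 0.107 CPM in any library, with Gkn1 and Gkn2 at 0 everywhere. The 5 gastric gland markers found in the table, which include Tff2, the trefoil factor made with MUC6, summed to between 0.107 and 0.486 CPM in the controls and between 0.159 and 0.357 CPM in the knockouts. Tff2 itself had 26 counts in all controls and 1 in all knockouts. Atp4a of the same list went the other way, with 15 and 28 counts, and Pgc, Atp4b and Cblif had at most 2 in either group. Airway and salivary markers summed to at most 0.211 CPM. Pancreatic acinar markers reached 4.15 CPM in 1 control library and at most 0.423 CPM in the knockouts, and 0 members of these 4 lists entered the test. Of 5 Paneth cell markers, 2 were tested and 1 (beside 1.57% of all genes) was lower, Mmp7, at 1.58 ± 0.782 CPM against 0.521 ± 0.213 CPM. No knockout library exceeded 0.900 CPM for Mmp7, so it passed the filter of 1 CPM through controls alone. Its call is therefore tied to how it entered the test. The other, Lyz1, was not called (log2 fold change -1.14, edgeR adjusted p 0.166). With the composition covariate 0 of the 2 were called, and without EPR fl/fl 3 only 1 was tested and 0 were called. Of 6 immune cell markers, 0 were called, at a summed level of 86.0 to 193 CPM in the controls and 81.8 to 117 CPM in the knockouts. The part of these cells in the mucin values was not tested.

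None of the 6 nearest tested genes around the mucin cluster was called. On the Muc6 side, Ap2a2, a subunit of the clathrin adaptor AP-2 whose end lies 0.445 kb from Muc6, measured 140 ± 10.1 CPM in the controls and 152 ± 9.68 CPM in the knockouts, a log2 fold change of 0.11 (95% interval -0.03 to 0.26). Chid1 had a log2 fold change of 0.11 at 93.6 kb and the tetraspanin Tspan4 one of -0.34 at 140 kb. On the Muc5b side, Tollip, an adaptor of Toll-like receptor signalling whose 3' end lies 1.73 kb from Muc5b, measured 71.7 ± 3.16 against 78.1 ± 5.35 CPM, a log2 fold change of 0.12 (interval -0.01 to 0.25). Mob2 at 135 kb and Gm45630 at 178 kb had log2 fold changes of 0.00 and -0.05. With edgeR, 0 of the 6 had an unadjusted p under 0.05, and DESeq2 called 0. The intervals of Ap2a2 and Tollip exclude a fall of the size measured for Muc2.

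**Figure D4:**
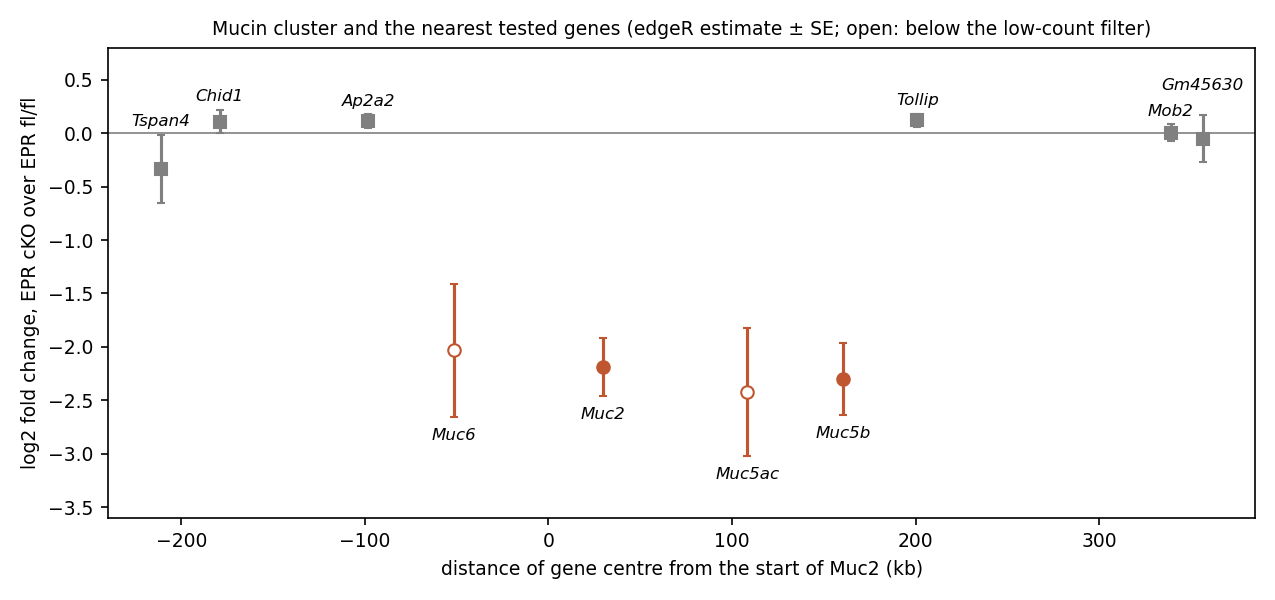
Log2 fold change of EPR cKO over EPR fl/fl (vertical axis, edgeR estimate ± SE) of the 4 mucins (orange circles, open for the 2 below the low-count filter) and the 3 nearest tested genes on each side (grey squares), against the distance of the gene centre in kb from the start of Muc2. The mucins lie between -2.42 and -2.03, and the neighbours between -0.34 and 0.12.

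Relatives listed for their von Willebrand factor D domains, apart from the members, showed 0 of 4 tested genes called. Fcgbp, an abundant goblet cell protein that binds to the MUC2 network, measured 4512 ± 1253 CPM in the controls and 2605 ± 722 CPM in the knockouts (log2 fold change -0.79). It was called by DESeq2 (adjusted p 0.00471) and by edgeR without EPR cKO 1 (0.00553), where 14.4% of all tested genes were called lower, but not by edgeR with all libraries. Vwf, the endothelial clotting factor with the same domain plan, measured 13.7 ± 1.30 and 13.2 ± 8.84 CPM. Muc19, the salivary gel-forming mucin, had 3 counts in all controls and 2 in all knockouts. The median log2 fold change of the tested relatives was -0.23, beside 0.02 over all genes tested.

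Membrane mucins, which are anchored in the apical membrane and build the glycocalyx of enterocytes, were called in 0 cases. Of 10 listed, 8 were in the table, 5 were tested and 0 were called in either direction, with a median log2 fold change of -0.25. Muc3 measured 1155 ± 100 CPM in the controls and 1280 ± 453 CPM in the knockouts, a log2 fold change of 0.15. Muc13 measured 1153 ± 131 and 968 ± 106 CPM, and Muc4 190 ± 57.9 and 121 ± 27.9 CPM. Muc4 was called lower by DESeq2 (1 of 5, beside 2.97% of all genes) and by edgeR without EPR cKO 1 (1 of 5, beside 14.4% of all genes).

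Genes for the folding, packing and release of mucins were lower in part. Of 10 tested, 5 were lower and 0 higher (median log2 fold change -0.64), beside the 1.57% of all genes called lower. Their edgeR adjusted p ran from 0.000136 to 0.0367. The 5 were Sytl2 (87.6 ± 11.9 against 45.0 ± 4.54 CPM), Rab27a (50.3 ± 6.70 against 27.3 ± 3.65 CPM), Sytl4 (30.4 ± 3.77 against 17.0 ± 2.11 CPM), Rab3d (132 ± 15.96 against 88.9 ± 13.2 CPM) and Creb3l4 (25.9 ± 4.64 against 13.9 ± 3.91 CPM). RAB27A and RAB3D are small GTPases of secretory granules, SYTL2 and SYTL4 are synaptotagmin-like effectors that tether granules, and CREB3L4 is a membrane-bound transcription factor of the secretory pathway. Agr2, the disulfide isomerase needed for MUC2 folding, measured 797 ± 86.9 and 529 ± 193 CPM and was not called (log2 fold change -0.59), but it was called without EPR cKO 1 (-0.44) and with the composition covariate (-1.27). The number lower was 8 without EPR cKO 1 (beside 14.4% of all genes). It was 3 without EPR fl/fl 4 or without EPR cKO 2 (beside 145 and 186 of all genes). The call of Creb3l4 was lost in 10 of the 12 omissions of a single library (edgeR adjusted p up to 0.106, kept without EPR fl/fl 6 or EPR cKO 1) and with total counts (0.0538). That of Rab3d was lost in 2, without EPR fl/fl 4 or EPR cKO 2 (up to 0.0636).

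Other secreted proteins of mucus were lower in 4 of 11 tested genes and higher in 0, with a median log2 fold change of -0.79 and edgeR adjusted p from 6.71e-05 to 0.0240 for the 4. Over all genes tested, 1.57% were called lower. Klk1, a tissue kallikrein, fell most, from 585 ± 92.7 to 134 ± 38.5 CPM (log2 fold change -2.13). Clca1, a metalloprotease that cleaves MUC2, fell from 3055 ± 1092 to 1192 ± 442 CPM. Zg16, a lectin that binds Gram-positive bacteria, fell from 1560 ± 307 to 883 ± 223 CPM, and Tff3, the trefoil factor of goblet cells, from 357 ± 14.6 to 247 ± 43.4 CPM. The call of Clca1 was lost with the composition covariate (log2 fold change -1.12, edgeR adjusted p 0.136) and without EPR fl/fl 1, EPR fl/fl 3, EPR cKO 3, EPR cKO 5 or EPR cKO 6 (0.0503 to 0.0650). That of Zg16 was lost without EPR fl/fl 5, EPR cKO 2, EPR cKO 3 or EPR cKO 6 (0.0593 to 0.0725), and that of Tff3 without EPR fl/fl 4 or EPR cKO 3 (0.0505 and 0.0546). The number lower was 7 by DESeq2 (beside 2.97% of all genes). It was 1 without EPR cKO 3 and 2 without EPR cKO 6 (beside 153 and 173 of all genes). Of the 14 genes listed, 7 also stand among the goblet cell markers, of which 7 of 12 were lower (11 without EPR cKO 1, 3 without EPR cKO 3 and 4 without EPR cKO 6). Without EPR cKO 1, 14.4% of all tested genes were called lower.

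Of 12 transcription factors of goblet cells and the intestine, 2 were lower and 0 higher, and their median log2 fold change was 0.00. Over all genes tested, 1.57% were lower and 0.884% higher. Atoh1, which commits progenitors to the secretory lineage, fell from 64.1 ± 8.95 to 29.5 ± 5.40 CPM (log2 fold change -1.12). Spdef, which drives goblet cell maturation, fell from 88.8 ± 24.8 to 51.0 ± 11.8 CPM at an edgeR adjusted p of 0.0497, and the call was lost when any 1 of 9 libraries was left out, the exceptions being EPR fl/fl 2, EPR fl/fl 6 and EPR cKO 1 (adjusted p from 0.0526 to 0.127 for the 9). It was also lost with total counts (0.0614). Hnf4a, a general regulator of the intestinal epithelium, measured 628 ± 68.3 and 782 ± 65.7 CPM and was not called (log2 fold change 0.32), and without EPR cKO 1 it was higher together with Cdx1 and Cdx2. In that setting 1178 of 15836 tested genes were higher.

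Enzymes that start and extend the O-glycans of mucins were lower in 4 of 12 tested genes and higher in 0 (median log2 fold change -0.36), with edgeR adjusted p from 4.33e-05 to 0.0287 for the 4. The share called lower over all genes was 1.57%. B3gnt6, the core 3 synthase of the colon, fell from 27.5 ± 6.76 to 4.05 ± 1.38 CPM (log2 fold change -2.75). Galnt5 and Galnt7, which encode N-acetylgalactosamine transferases, had log2 fold changes of -1.12 and -0.58. C1galt1c1, the chaperone of the core 1 synthase, fell from 60.2 ± 4.79 to 42.6 ± 6.82 CPM. Its call was lost with total counts (edgeR adjusted p 0.0602) and in 8 of the 12 omissions of a single library (0.0515 to 0.101), and it was kept without EPR fl/fl 3, EPR fl/fl 6, EPR cKO 1 or EPR cKO 5. Gcnt3, the core 2 and core 4 enzyme with the highest level of the others, measured 751 ± 71.4 and 686 ± 93.4 CPM and was not called. With the composition covariate 7 of 12 were lower, beside 1.49% of all genes. The study itself had examined or named Muc2, B3gnt6, Galnt5, Galnt7, C1galt1, Sytl2, Clca1, Fcgbp, Agr2, Ern2, Klk1, Bcas1, Tff3, Atoh1 and Spdef. The counts of lists that hold them are therefore not independent evidence of their direction. By qRT-PCR of isolated crypts, the study reported Tff3 and C1galt1 at similar levels in both groups.

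**Figure D5:**
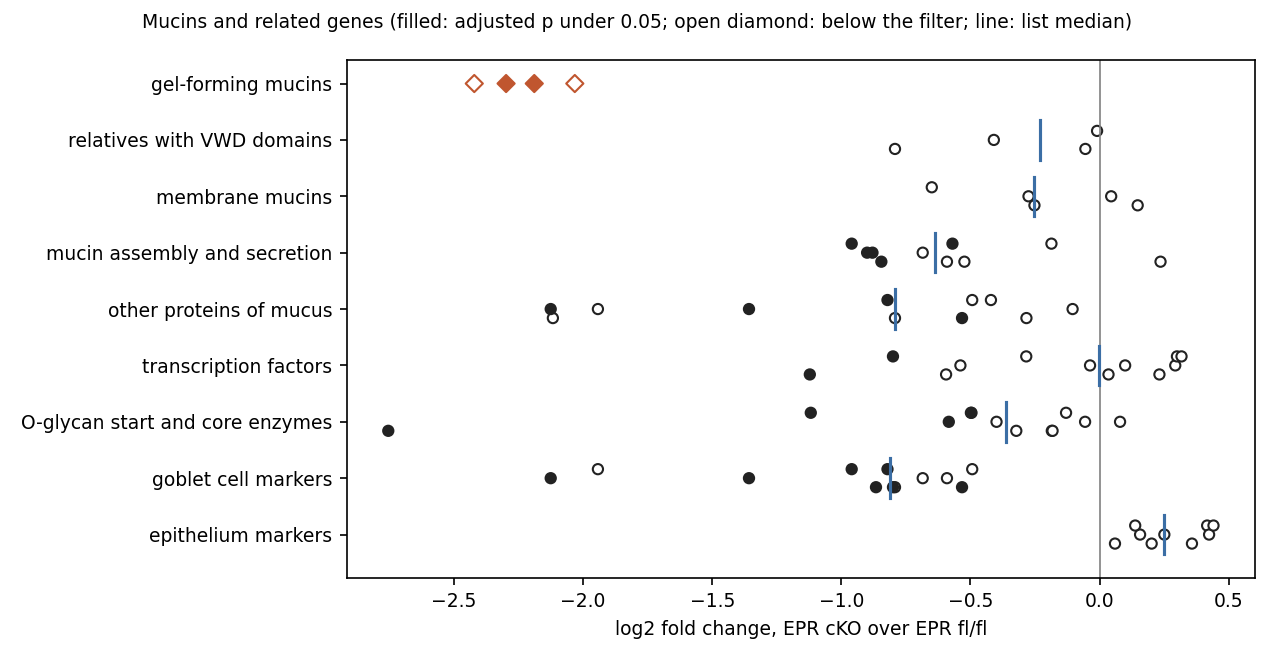
Log2 fold change of EPR cKO over EPR fl/fl (horizontal axis) for the 4 gel-forming mucins (orange diamonds, open for the 2 below the low-count filter) and for each tested gene of 8 lists (circles, filled where the edgeR adjusted p was under 0.05), with the list median as a blue line. The mucins lie between -2.42 and -2.03, and the medians of the other lists lie between -0.81 and 0.25.

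The pattern of Muc2 from animal to animal was compared with that of 15518 genes of at least 1 CPM, after the mean of each group was removed. The 5 genes most like Muc2 over the 12 libraries were Gm13380 (r = 0.95), Auts2 (0.95), Golgb1 (0.94), Emsy (0.94) and Cbfa2t3 (0.93). Of these, Cbfa2t3 was also lower between the groups (32.0 ± 10.2 against 17.7 ± 2.82 CPM, log2 fold change -0.85, edgeR adjusted p 0.0325). That call was lost with the composition covariate (-0.71, adjusted p 0.143) and in 7 of the 12 omissions of a single library (0.0590 to 0.0781), and it was kept without EPR fl/fl 2, EPR fl/fl 5, EPR fl/fl 6, EPR cKO 1 or EPR cKO 2. Golgb1, the Golgi protein giantin, measured 289 ± 48.6 and 233 ± 14.4 CPM and was not called. Muc5b stood at rank 1328 among the 15518 (r = 0.54). Among genes that goblet cells make, Fcgbp had r = 0.71, Spdef 0.50 and Clca1 0.49, whereas Agr2 had -0.05, Tff3 -0.40, Spink4 -0.48 and Zg16 -0.66. Epcam, a general epithelium marker, also had -0.66. The 3 genes most like Muc5b were Chd4 (0.93), Tox (0.90) and Il17re (0.90). The libraries share depth and tissue mix, and EPR fl/fl 3 was the highest library for both mucins, so that these values are a description.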

How the data were processed

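Total RNA came from whole frozen proximal colon (6 EPR fl/fl, 6 EPR cKO). The authors depleted ribosomal RNA and made stranded libraries, which were read from both ends. After trimming (Trimmomatic), alignment to mm10 was by STAR 2.5.3a and gene counting by featureCounts on Ensembl GRCm38. The deposited values were raw counts for 55376 genes, with the exon intervals and summed exon length of each gene. The strand setting and the treatment of multiply aligned reads were not given in the sources used here. All 12 columns of counts carried a sample's name, and 0 were left over. Groups and replicate numbers were taken from the labels.

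The counts were fitted in R 4.3.3 with edgeR 4.0.16 (quasi-likelihood test, TMM scaling, all 12 libraries, no covariate). The filter of the study (1 CPM or more in 4 libraries or more) passed 15952 of the 36694 genes with any count, and p-values were adjusted over all of them by the Benjamini-Hochberg method. An adjusted p under 0.05 was called lower or higher. The SE was the absolute log2 fold change divided by the square root of F. Muc5ac and Muc6, below the filter, were tested by a two-sided exact permutation of log2 CPM (prior count 0.5) over all assignments of 6 of 12 libraries, and their fold changes came from a fit without filter. Ratios within libraries were tested in the same way, with a prior count of 0.5, and their 95% intervals were obtained by inverting the permutation test. The 95% intervals of neighbouring genes used the SE and the total degrees of freedom (residual plus prior) of the edgeR fit. The composition score and the likeness between genes used log2 CPM with a prior count of 2.

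Exon models and 50-base stretches were compared with a GENCODE annotation of GRCm38, and promoter windows were taken from RefSeq, where 2 of the 4 members were matched. The tests were tested on simulated data. Named genes were the members, EPR, the 3 nearest tested genes on each side of the cluster, for each list up to 5 called genes and the most abundant of the others, Vwf, Muc19, and the genes with the most similar pattern. Muc4, Muc13, Mmp7, Lyz1, Cldn7, Cdx1 and Cdx2 were chosen after their values were seen, and so were Tff2 and the other gastric gland markers. The members and lists were chosen with earlier results of these data known. Alternatives were DESeq2 size factors, total counts, no filter, filterByExpr, limma-voom (limma 3.58.1), DESeq2 1.42.0 with its Wald test, a replicate block, a tissue composition covariate, a prior count of 2 for the ratios, Muc2 left out of the library sizes, and each library left out in turn. The omission of 3 libraries together, and all alternatives for the count over all genes, were added after seeing the data. Depth was 13093904 to 33211041 counts per library, and the common biological variation (edgeR) was 26.1%.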

Additional observations from a re-analysis of the deposited data

Results flagged for a closer look

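Among 90 sets of 6 libraries checked (members, named genes and ratios, each group apart), 13 held a library whose distance from its nearest neighbour was large beside the range of the set (Dixon's test), where chance gives about 1 in 20, or 4.5. The sets are not independent, since ratios reuse Muc2 and some genes, among them Gm13380 and Golgb1, were named for their likeness to it. The 13 and the 4.5 therefore do not make a test. All values are TMM-scaled CPM.

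EPR fl/fl 3 stood above the other controls for Muc5b, at 14.4 against 4.35 to 7.58, for Muc6, at 1.30 against 0.0730 to 0.519, and for Gm13380, at 2.02 against 0.715 to 1.04. EPR cKO 5 stood below the other knockouts for Muc2, at 1071 against 1731 to 2023, and for Golgb1, at 205 against 234 to 244. EPR cKO 1 stood below the others for C1galt1c1, at 29.4 against 42.3 to 47.7, for Creb3l4, at 6.26 against 13.5 to 16.7, for Galnt7, at 141 against 169 to 180, and for Rab3d, at 62.4 against 91.2 to 97.9. The same library stood above the others for Rab27a, at 34.3 against 23.8 to 27.4, and for Vwf, at 29.9 against 5.50 to 14.1. Mob2 was at 34.9 in EPR fl/fl 1 against 42.3 to 44.1, and EPR (Smim31) was at 0.423 in EPR cKO 2 against 0 to 0.134. The cause was not tested.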

How the results depend on the processing

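Of the values that the alternatives gave for the comparisons, 255 stayed on their side of the threshold, or within 1.5 times for counts. Of the rest, 50 counts moved further, 12 values lost their call and 1 gained one, and no called value changed sign. The difference in the Muc2 to Muc5b ratio, never called, changed sign without EPR cKO 1 (-0.04). All 12 lost calls were of Muc5ac and Muc6, whose starting call was an unadjusted exact permutation p. Some of these set it against an adjusted p over all genes, an unlike measure. For the named genes that are no members, 516 values kept their side, 52 lost their call (8 genes) and 8 gained one. The log2 fold change of Muc2 ran from -2.33 to -1.93 and that of Muc5b from -2.46 to -1.98 when each library was left out, and both stayed called at an adjusted p under 0.05 in every alternative run. With EPR fl/fl 3, EPR cKO 1 and EPR cKO 5 left out together, a choice made after seeing the data, they were -1.86 and -1.85. The fall of Muc5ac was not called by edgeR without filter (-2.42, adjusted p 0.0776) or with the composition covariate (-1.80, adjusted p 0.339). It was called by limma-voom (-2.34, adjusted p 0.0421), and it kept an exact p of at most 0.00866 with each library left out. Muc6 was not called without filter (-2.03, edgeR adjusted p 0.203), with limma-voom (-1.85, adjusted p 0.240) or with the composition covariate (-1.64, adjusted p 0.467), and with each library left out it ran from -2.23 to -1.36. filterByExpr removed Muc5ac and Muc6, and DESeq2 gave them no adjusted p, so that neither gives a call there. Without the 2 farthest libraries, Muc2 and composition in EPR cKO had r = -0.97.

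The deviations of same-numbered libraries correlated between -0.242 and 0.340, and 2 of 6 libraries correlated best with their own number. Such correlations cannot show whether same-numbered animals shared a litter or were handled together, so the pairing of the animals is not known. With the replicate block, log2 fold changes were -2.11 for Muc2 and -2.25 for Muc5b (edgeR adjusted p 0.00191 and 0.0113), -2.40 for Muc5ac (exact sign-flip p 0.0313, the smallest possible) and -1.74 for Muc6 (exact p 0.125), and 178 genes were lower and 67 higher in all.

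By DESeq2, 1 relative, 1 membrane mucin, 7 other proteins of mucus and 473 of all genes were lower, and 1 transcription factor and 440 of all genes were higher. With the 3 libraries left out, these were 1 relative, 7 other proteins and 1242 of all genes lower, and 1 transcription factor and 382 of all genes higher. With total counts, 1 transcription factor and 247 of all genes were lower, and 39 genes higher. With the composition covariate, 7 O-glycan enzymes and 238 of all genes were lower, and 84 genes higher. Over single libraries left out, the number lower ran from 0 to 1 for relatives and for membrane mucins, 3 to 8 for assembly and secretion, 1 to 6 for other proteins of mucus, 1 to 3 for transcription factors (0 to 3 higher), 3 to 11 for goblet cell markers and 145 to 2273 for all genes (31 to 1178 higher). The causes were not tested. Few reads limit Muc5ac and Muc6.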
